A study of Mus musculus with 61 samples.

Results

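Sox9, Onecut1 (also called Hnf6), Onecut2, Glis3 and Nr5a2 are transcription factors of pancreatic duct and progenitor cells. Their RNA was followed here in mouse pancreatic ductal organoids made to express Ngn3, Pdx1 and MafA. The 5 genes were taken by name from the deposited count table and are 5 of its 46078 genes. All 5 were among the 24004 genes tested. Glis3 and Onecut2 were lower in cells expressing Ngn3, whereas Sox9 differed more between replicate numbers than with Ngn3, and Onecut1 and Nr5a2 were close to the limit of detection.

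Ducts and endocrine cells arise from a common epithelium in the embryonic pancreas. Sox9, an HMG-box factor, marks its progenitors and remains on in adult ducts. The Onecut proteins, with a cut domain and a homeodomain, act in progenitors and ducts, and Onecut1 is known to activate the Neurog3 gene, which encodes Ngn3. Glis3, a zinc finger protein, is needed for normal ducts and for β-cells and also acts on the Neurog3 and insulin genes. Nr5a2, an orphan nuclear receptor, is needed for the acinar lineage.

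Organoids are 3-dimensional cultures of duct cells, here from C57BL/6 mice. They were infected together with separate lentiviral vectors for GFP-Ngn3, LSSOrange-Pdx1 and tdTomato-MafA and with a transactivator vector that makes them respond to doxycycline. After 8 days of doxycycline, pools of 50 cells were sorted by colour and sequenced, so that all conditions carried vectors and had been treated. The amount of each vector could differ between the cells of a pool, and uninfected cells and cells with Ngn3 alone were not analysed here. Cells sorted for Ngn3 together with Pdx1, with MafA or with both (17 samples) were set against cells sorted for Pdx1, MafA or both without Ngn3 (15 samples). The latter came from the same kinds of culture, which had also been given Ngn3. Cultures had received either wild-type Ngn3 (WT) or 6SA Ngn3, a form in which 6 serines that can be phosphorylated are changed to alanine. This gave 12 conditions with 2 or 3 replicates each. Replicates 1 and 2 were from organoids at passage 2 and replicate 3 from organoids at passage 5.

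Of 61 libraries, 58 had over 1000000 gene counts, and technical repeats were summed to 32 samples with 2579583 to 19461008 gene counts each. Levels are given as CPM, gene counts per 1000000 in all after scaling between samples. As a check of the labels, Neurog3 was at 7.87 to 329 CPM in the samples sorted for Ngn3 and at 0 to 0.787 CPM in the others, without overlap. Pdx1 was at 9.84 to 191 CPM in samples sorted for it and 3.21 to 30.6 CPM in the others, and Mafa at 0 to 12.7 and 0 to 0.116 CPM, so that the ranges of both overlapped. Mafa had 0 counts in 6SA Pdx1-MafA replicate 3 and 1 count each in WT MafA replicate 1 and WT Pdx1-MafA replicate 2. It had 2 counts in 6SA Ngn3-MafA replicate 3 and 3 in WT MafA replicate 2. A count of 3 was taken as the limit of detection. Among samples sorted for Pdx1, WT Ngn3-Pdx1 replicate 3 (9.84 CPM) and WT Pdx1 replicate 2 (11.2 CPM) were the lowest. Others also lay within the range of samples not sorted for Pdx1. The Pdx1 and MafA labels of all these samples rest on the colour of the sort, and so do the comparisons by background. Both calls over all backgrounds, given further on, remained when any single sample was left out. The counts do not separate vector from endogenous transcripts. The 12 duct markers summed to 20467 to 68721 CPM in cells without Ngn3, against 0.617 to 14 CPM for 12 acinar markers. Each sample is a pool of cells, in which fewer cells of a type and less RNA per cell cannot be told apart. The labels do not say whether replicates came from separate animals, so p-values measure the spread between these samples.

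The genes differed widely in level. Per kilobase of exon, Onecut2 had the highest median in cells without Ngn3 (48.2 CPM per kb), followed by Sox9 (38.1) and Glis3 (10.03 CPM per kb). The medians of Onecut1 (0.520 CPM per kb) and Nr5a2 (0.122 CPM per kb) were far lower. In the annotation of GRCm38, Sox9 (ENSMUSG00000000567) lies on chromosome 11, positions 112782224 to 112787760, and Onecut2 (ENSMUSG00000045991) on chromosome 18, positions 64340020 to 64400987, both on the plus strand. Glis3 (ENSMUSG00000052942) covers positions 28258851 to 28680077 of chromosome 19 on the minus strand. Onecut1 (ENSMUSG00000043013) lies at positions 74861921 to 74891781 of chromosome 9 on the plus strand, and Nr5a2 (ENSMUSG00000026398) at positions 136842571 to 136960448 of chromosome 1 on the minus strand. The RNA Gm20649 shares 2171 bases with the exons of Onecut1 on the same strand, or 52.8% of them, and had 0 counts in all samples. Whether reads of this stretch were left uncounted was not tested.

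**Figure D1:**
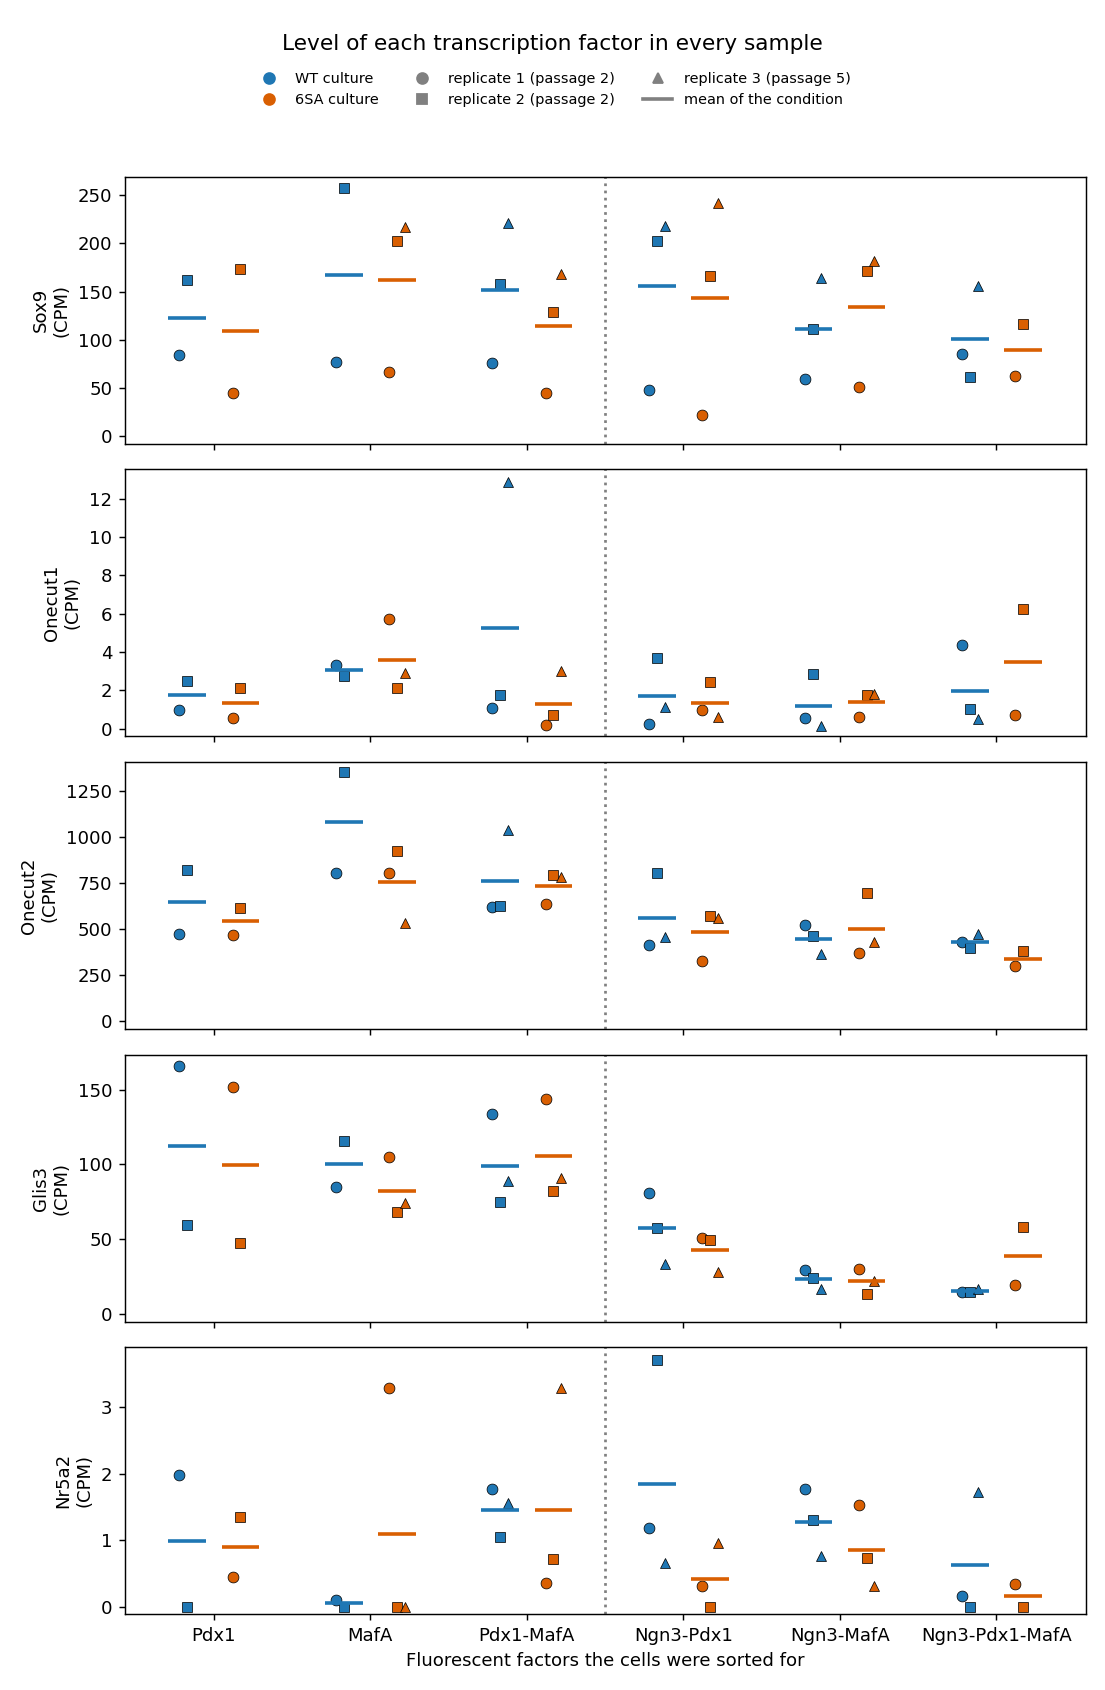
Level of each gene (CPM, linear axes) in all 32 samples by the factors the cells were sorted for, with colour for the culture, marker shape for the replicate and a bar for the mean of the condition. Glis3 is at 47.7 CPM or above in all samples without Ngn3 (left of the dotted line) and at 81 CPM or below with Ngn3.

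The first comparison asked what adding Ngn3 did to the 5 genes. Over all 3 backgrounds (Pdx1, MafA, or both) and both kinds of culture, 2 of the 5, Glis3 and Onecut2, were called lower in Ngn3 cells and none higher. Of all genes tested, 10.5% were called lower. A gene was called at an adjusted p under 0.05 in edgeR's quasi-likelihood test, with Benjamini-Hochberg adjustment over all genes tested. In all, 2658 genes were called higher and 2510 lower. With plain library totals in place of scaling between samples these were 3623 and 1676, and the median log2 change of all genes was 0.28 instead of 0.07.

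Glis3 had the largest difference of the 5. In Pdx1 cells it was at 166 and 59.5 CPM in WT cultures and at 152 and 47.7 CPM in 6SA cultures. In MafA cells it was at 85.0 and 116 CPM (WT) and at 105, 68.4 and 74.1 CPM (6SA). Cells with Pdx1 and MafA had 134, 75.1 and 88.7 CPM in WT and 144, 82.5 and 91.1 CPM in 6SA cultures. None of the 15 samples without Ngn3 was therefore below 47.7 CPM, with a median of 88.7 CPM.

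When Ngn3 was added to Pdx1, Glis3 was at 81, 57.3 and 33.6 CPM (WT) and at 50.8, 49.5 and 28.3 CPM (6SA), which overlaps the range of Pdx1 cells. With Ngn3 and MafA it was at 29.5, 23.9 and 16.6 CPM (WT) and at 30.2, 13.6 and 22.3 CPM (6SA), below every sample with MafA alone. With all 3 factors, the WT replicates had 14.7, 14.8 and 16.5 CPM and the 6SA replicates 19.2 and 58.1 CPM. The last 6SA sample stood above the other samples with all 3 factors, although its endocrine markers, at 16005 CPM in sum, were the highest of these 5 samples. Of the 17 Ngn3 samples, 12 were below all samples without Ngn3.

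In the fit over all backgrounds, Glis3 fell by 1.72 on the log2 scale (SE 0.21, adjusted p = 5.54e-07), or 3.30-fold. The estimate stayed between -1.89 and -1.52 when each single sample was left out in turn, and Glis3 remained called in all 32 of these fits.

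RefSeq's promoter windows of GRCm38.p6, from 250 bases before to 50 after a start site, were examined for 3 of the 5 genes. No window of Sox9 or Onecut2 was examined, so the search says nothing about these genes. The window of Glis3 is shown because this gene had the largest difference of the 5 between cells with and without Ngn3. The window was searched on both strands for the E-box CANNTG, the class of site that Ngn3 and its relatives bind. It has 1 match, and 72.3% of 32851 such windows have at least 1. The E-box CAGATG, the Maf half-site TGCTGA and the homeodomain core TAATTA, which are held by 17.2%, 19.5% and 5.29% of windows, have no match in the windows of Glis3, Onecut1 or Nr5a2. A match to these letters is not a bound site. The 250 bases before the Glis3 start, chr19:28680078-28680327 on the minus strand, are given 5′ to 3′ with the E-box in capitals.
Glis3: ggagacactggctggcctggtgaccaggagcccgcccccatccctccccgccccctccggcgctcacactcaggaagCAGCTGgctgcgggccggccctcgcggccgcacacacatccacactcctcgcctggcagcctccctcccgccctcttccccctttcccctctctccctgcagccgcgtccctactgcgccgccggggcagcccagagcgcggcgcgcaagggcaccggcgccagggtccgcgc

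By background, 0 of the 5 genes were called lower when Ngn3 was added to Pdx1, where 0.171% of all genes were called lower. In this comparison 1 of the 5 (Glis3) and 12.1% of all genes had an unadjusted p under 0.05. DESeq2 called 0 of the 5 and 911 genes in all. When Ngn3 was added to MafA, 2 of the 5 were called lower, against 2.17% of all genes, and when it was added to Pdx1 with MafA, again 2 of the 5, against 8.4% of all genes. Both times these were Glis3 and Onecut2. The estimate for Glis3 was -1.10 (SE 0.36, adjusted p = 0.158) with Pdx1, -2.0 (SE 0.36, adjusted p = 0.000709) with MafA and -2.08 (SE 0.38, adjusted p = 0.000293) with both. The call with MafA was lost without replicate 2 (adjusted p = 0.0673). With Pdx1, the estimate for Glis3 ranged from -1.73 to -0.33 over alternative settings. Pdx1 cells without Ngn3 have no replicate 3, while both Ngn3-Pdx1 conditions have one. Between same-numbered samples, the log2 difference of Glis3 with Pdx1 was -1.02 (WT) and -1.56 (6SA) in replicate 1. In replicate 2 it was -0.05 (WT) and 0.05 (6SA).

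The larger estimates for Glis3 with MafA than with Pdx1 were not shown to differ. In the test of the Ngn3 effect with MafA against that with Pdx1, 0 of the 5 genes were called and 0% of all genes. An unadjusted p under 0.05 was found for 0 of the 5 and 3.42% of all genes. The difference was -0.91 for Glis3 (SE 0.51) and -0.74 for Onecut2 (SE 0.39). Over alternative settings it ranged from -1.895 to -0.09 for Glis3 and from -0.82 to -0.70 for Onecut2. DESeq2 called 0 of the 5 and 19 genes in all. An F test over the 3 backgrounds, added after seeing the data, called 0 of the 5 genes and 0.0333% of all genes, and its adjusted p was 0.82 for Glis3 and 0.772 for Onecut2. 0 of the 5 had an unadjusted p under 0.05 in it.

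**Figure D2:**
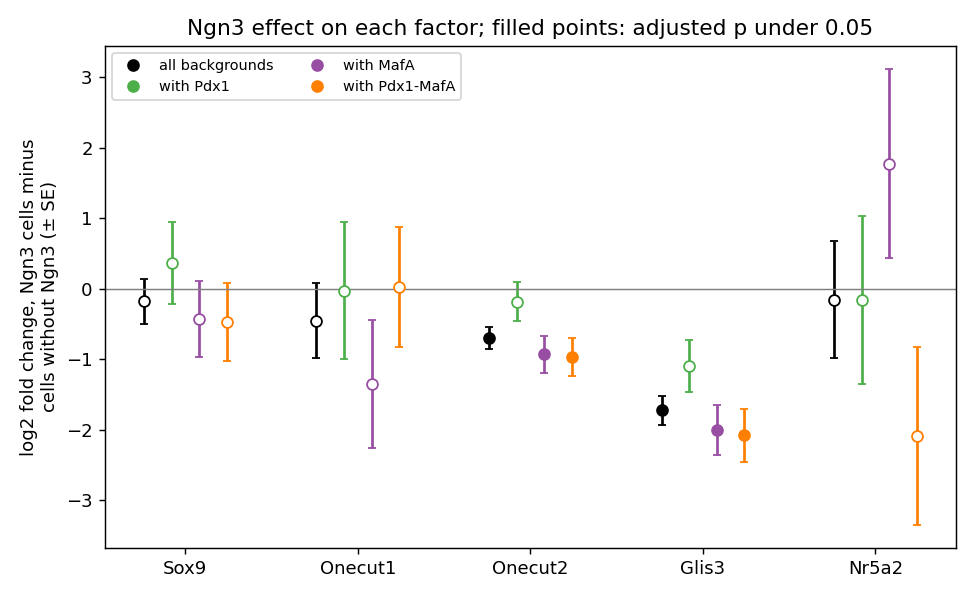
Log2 fold change (± SE) of each gene between cells with and without Ngn3, over all backgrounds (black) and in each background, from edgeR. Filled points had an adjusted p under 0.05: Glis3 and Onecut2 over all backgrounds, with MafA and with Pdx1-MafA.

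Onecut2 was abundant in every condition and moderately lower with Ngn3. In Pdx1 cells it was at 473 and 822 CPM (WT) and at 472 and 617 CPM (6SA). MafA cells had 806 and 1357 CPM (WT) and 808, 925 and 533 CPM (6SA), which include the highest of all samples. Cells with both had 621, 625 and 1038 CPM (WT) and 638, 793 and 783 CPM (6SA), so that no sample without Ngn3 was below 472 CPM.

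With Ngn3 and Pdx1, Onecut2 was at 414, 807 and 458 CPM (WT) and at 327, 571 and 564 CPM (6SA), within or near the range of Pdx1 cells. With Ngn3 and MafA it was at 522, 462 and 365 CPM (WT) and at 371, 700 and 432 CPM (6SA). With all 3 factors it was at 429, 397 and 474 CPM (WT) and at 301 and 381 CPM (6SA), below every sample with Pdx1 and MafA but without Ngn3. Over all samples the groups with and without Ngn3 overlapped, and 11 of the 17 Ngn3 samples were below all 15 without.

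Onecut2 fell by 0.69 on the log2 scale over all backgrounds (SE 0.16, adjusted p = 0.00146), or 1.62-fold. The estimate was -0.19 with Pdx1 (SE 0.28, adjusted p = 0.944), -0.93 with MafA (SE 0.26, adjusted p = 0.037) and -0.96 with both (SE 0.27, adjusted p = 0.0134). The calls within a background did not hold in every fit. The one with MafA was lost when any 1 of 12 of the 32 samples was left out (adjusted p up to 0.311, without replicate 2 of WT MafA). Some of the 12, such as 6SA Pdx1 replicate 1 (adjusted p = 0.0516), are not in this comparison and act only through the shared fit. The estimate with MafA stayed between -1.09 and -0.68. The call with both was lost without replicate 3 of WT Pdx1-MafA (adjusted p = 0.0569) or replicate 1 of 6SA Ngn3-Pdx1-MafA (adjusted p = 0.071). Both were also lost without replicate 1, 2 or 3 of all conditions, with adjusted p of 0.134, 0.604 and 0.169 with MafA and of 0.105, 0.162 and 0.0823 with both, and with plain library totals (adjusted p = 0.158 and 0.089). Over all backgrounds the call remained with each single sample left out, but not without replicate 2 of all conditions (adjusted p = 0.0879).

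Sox9 was present in every sample, and no difference with Ngn3 passed the test. In Pdx1 cells it was at 84.0 and 162 CPM (WT) and at 45.0 and 173 CPM (6SA). In MafA cells it was at 77 and 257 CPM (WT) and at 66.7, 202 and 217 CPM (6SA), and with both factors at 75.8, 158 and 222 CPM (WT) and at 44.4, 129 and 168 CPM (6SA). In each of these conditions replicate 1, given first, was the lowest.

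With Ngn3 and Pdx1, Sox9 was at 47.6, 203 and 218 CPM (WT) and at 22.1, 166 and 242 CPM (6SA). With Ngn3 and MafA it was at 58.8, 111 and 164 CPM (WT) and at 50.5, 171 and 181 CPM (6SA). With all 3 factors it was at 85.7, 61.6 and 156 CPM (WT) and at 62.1 and 116 CPM (6SA), where the WT samples made the one exception to the low replicate 1. With all replicate numbers pooled, the ranges with Ngn3 (22.1 to 242 CPM) and without (44.4 to 257 CPM) almost coincided. Between samples of the same culture, background and replicate number, Sox9 was lower with Ngn3 in 11 of 14 pairs. The log2 differences of these pairs ran from -1.34 to 0.47, with a median of -0.32, and were not tested.

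The estimate for Sox9 over all backgrounds was -0.18 (SE 0.32, adjusted p = 0.929), and 0.05 with plain library totals. Pdx1 cells without Ngn3 have no replicate 3, while both Ngn3-Pdx1 conditions have one. Replicate 3 is also missing from WT MafA and from 6SA Ngn3-Pdx1-MafA. The estimate was 0.37 with Pdx1 (SE 0.58), where a replicate block turned it to -0.16, and it was -0.43 with MafA (SE 0.54) and -0.47 with both (SE 0.55). An SE of this size leaves room for differences in either direction.

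By replicate number, Sox9 was at 22.1 to 85.7 CPM in the 12 samples of replicate 1 (median 60.4), at 61.6 to 257 CPM in the 12 of replicate 2 (median 164) and at 156 to 242 CPM in the 8 of replicate 3 (median 199). A term for the replicate number, added to the 12 conditions after these values were seen, was called for 1 of the 5 genes, Sox9 (F = 37.1, adjusted p = 1.79e-06). It was called for 28.1% of all genes, so that Sox9 was one of many. Sox9 was higher by 1.39 on the log2 scale in replicate 2 than in replicate 1 (SE 0.20, adjusted p = 9.17e-06), both at passage 2, and by 1.80 in replicate 3 than in replicate 1 (SE 0.22, adjusted p = 2.86e-06). Replicates 3 and 2 differed by 0.41 (SE 0.22, adjusted p = 0.309). Between single replicate numbers, Onecut2 was higher in replicate 2 than in replicate 1 by 0.44 (SE 0.15, adjusted p = 0.0437), although its F test over the 3 numbers did not pass (adjusted p = 0.0769). The labels give no other property that separates replicates 1 and 2, and what differed between them was not tested.

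Technical repeats of the same sample differed less. For Sox9 the SD of log2(CPM + 1) was 0.383 between technical repeats (17 samples with repeats) and 1.07 between replicates of a condition. The same SDs were 0.250 and 0.392 for Onecut2, 0.462 and 0.584 for Glis3, 0.690 and 0.893 for Onecut1, and 0.618 and 0.698 for Nr5a2. For these 4 genes the SDs were closer to each other than for Sox9.

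**Figure D3:**
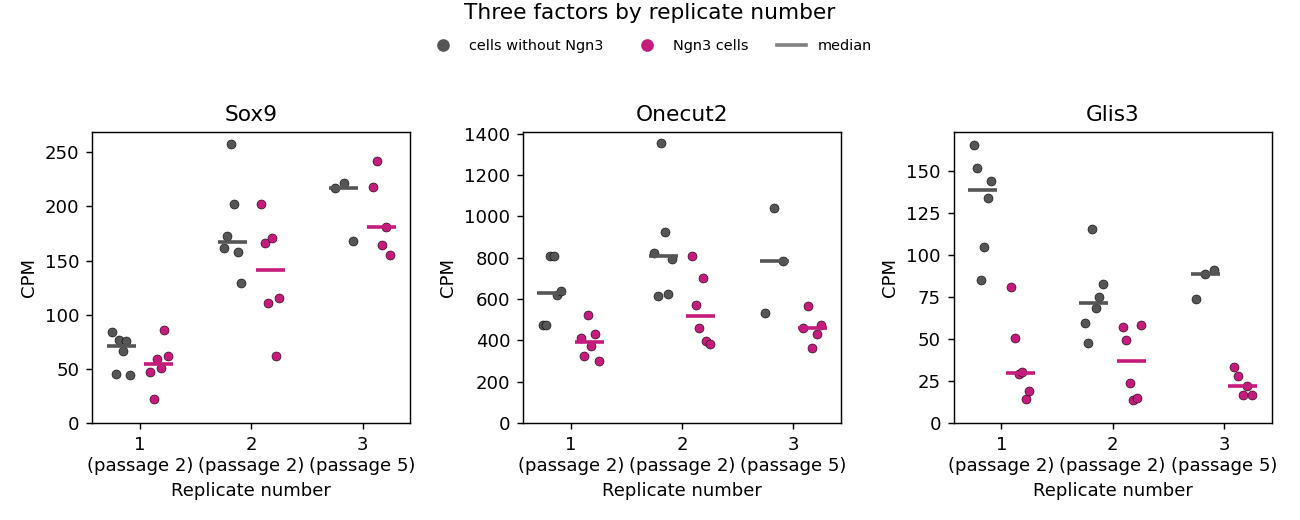
Sox9, Onecut2 and Glis3 (CPM) by replicate number in cells without Ngn3 (grey) and with Ngn3 (pink), 1 point per sample and a bar at the median. Sox9 is at 22.1 to 85.7 CPM in replicate 1 in both groups, while Glis3 is separated mostly by Ngn3.

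Passage was compared in a fit with a term for passage 5 (8 samples) against passage 2 (24 samples). It called 0 of the 5 genes, against 8.23% of all genes, and 1 of the 5 had an unadjusted p under 0.05, as did 26.3% of all genes. This was Sox9, with an estimate of 0.94 (SE 0.33, adjusted p = 0.0714), where the median of all genes was -0.26. DESeq2 called 1 of the 5 and 4106 of all 24004 genes, and Sox9 was also called with replicate 2 of WT Ngn3-Pdx1 (adjusted p = 0.043) or of 6SA Ngn3-Pdx1 (adjusted p = 0.0439) left out. Passage 5 and replicate 3 are the same samples and cannot be told apart. The estimate for Glis3 was -0.38 (SE 0.24, adjusted p = 0.323) and that for Onecut2 was -0.04 (SE 0.19, adjusted p = 0.929).

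Onecut1 was at 0.151 to 6.25 CPM with Ngn3 (median 1.02) and at 0.177 to 12.9 CPM without (median 2.14), on 1 to 107 counts per sample. In 2 of the 32 samples it had 3 counts or fewer, the number taken as the limit of detection, which corresponds to 0.136 to 1.01 CPM depending on the sample. The highest value, 12.9 CPM, was that of replicate 3 of WT Pdx1-MafA, a single library of 107 counts, against 1.07 and 1.74 CPM in the other replicates. In 6SA MafA replicate 2 the technical repeats had 8.74 and 0.181 CPM before scaling between samples, on 12 counts and 1 count. The estimate for Onecut1 over all backgrounds was -0.45 (SE 0.54, adjusted p = 0.734), and it was the least certain beside that of Nr5a2.

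Nr5a2 was lower still, at 0 to 3.71 CPM with Ngn3 (median 0.727) and 0 to 3.29 CPM without (median 0.722). It had 0 counts in 7 of the 32 samples and 3 or fewer in 10, with at most 57 counts. A count of 0 allows up to 3 counts, which cover counting error only, since amplified reads are not independent molecules. Its estimate over all backgrounds was -0.15 (SE 0.83, adjusted p = 1), and no difference was detectable at this depth. Of 12 acinar markers, 5 were at 3 counts or fewer in all of the same samples.

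The conditions were ordered by mean level for each gene. For Sox9, Onecut1 and Nr5a2, the means of all 11 pairs of neighbours in this order differed by less than the SD of their replicates, and all ranges overlapped. The order of Glis3 ran from 113 ± 75.1 CPM in WT Pdx1 (SD, n = 2) to 15.3 ± 1.02 CPM in WT Ngn3-Pdx1-MafA (SD, n = 3), with all 6 conditions without Ngn3 above all 6 with it, and 9 of 11 neighbouring pairs differed by less than the SD. That of Onecut2 ran from 1081 ± 389 CPM in WT MafA (SD, n = 2) to 341 ± 56.8 CPM in 6SA Ngn3-Pdx1-MafA (SD, n = 2). In it, 10 of 11 neighbouring pairs differed by less than the SD, and WT Ngn3-Pdx1 lay above 6SA Pdx1.

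The comparisons among Ngn3 cells asked what a further factor added. MafA added to Ngn3 with Pdx1 gave 0 of the 5 genes called, against 1.88% of all genes. The estimate was -1.03 for Glis3 (SE 0.36, adjusted p = 0.151), the 1 gene of the 5 with an unadjusted p under 0.05, and -0.44 for Onecut2 (SE 0.27, adjusted p = 0.451). Of all genes, 15.3% had an unadjusted p under 0.05. Pdx1 added to Ngn3 with MafA gave 0 of the 5 called, against 2.72% of all genes, and 0 with an unadjusted p under 0.05, against 18.7%. The estimate was 0.10 for Glis3 (SE 0.35) and -0.30 for Onecut2 (SE 0.27). DESeq2 called 0 of the 5 in both, and 1344 and 1935 genes in all. Without Ngn3, Pdx1 against MafA gave 0 of the 5 called and 0% of all genes. An unadjusted p under 0.05 was found for 1 of the 5 (Onecut2, -0.61, SE 0.30) and 2.81% of all genes. DESeq2 called 0 of the 5 and 26 genes in all. The estimate for Glis3 was 0.22 (SE 0.39).

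The study compared 6SA with wild-type Ngn3. In Ngn3 cells, 6SA against WT gave 0 of the 5 genes called and 0% of all genes by edgeR, with 0 of the 5 and 1422 of all genes at an unadjusted p under 0.05. DESeq2 called 0 of the 5 and 26 genes in all. The estimates were 0.28 for Glis3 (SE 0.28) and -0.13 for Onecut2 (SE 0.21). Between the same cultures' cells without Ngn3, 0 of the 5 and 0% of all genes were called. An unadjusted p under 0.05 was found for 0 of the 5 and 2.46% of all genes. The estimates were -0.12 for Glis3 (SE 0.30) and -0.27 for Onecut2 (SE 0.23). The Ngn3 effect in 6SA minus that in WT cultures gave 0 of the 5 and 0% of all genes, with 0 of the 5 and 2.70% of all genes at an unadjusted p under 0.05. It was 0.40 for Glis3 (SE 0.41) and 0.14 for Onecut2 (SE 0.31). DESeq2 called 0 of the 5 in both of these comparisons, and 8 and 5 genes in all. These errors leave room for differences of more than 1.5-fold in Glis3, so that similar action of both forms is not shown.

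Other duct and progenitor transcription factors moved in both directions. Of a list of 18, 17 were tested, and 5 were called lower and 3 higher with Ngn3 over all backgrounds. The median log2 change of the 17 was -0.39, against 0.07 for all genes. Those lower included Ehf (-2.12, SE 0.19, adjusted p = 3.14e-09), Elf3 (-1.47, SE 0.22, adjusted p = 1.14e-05), Grhl2 (-2.12, SE 0.36, adjusted p = 7.47e-05) and Hnf4a (-0.91, SE 0.30, adjusted p = 0.0264). Ehf and Elf3 are ETS factors of epithelia, and Grhl2 maintains epithelial junctions. Prox1, a homeodomain factor of pancreatic progenitors (1.47, SE 0.29, adjusted p = 0.000351), Foxa3, a forkhead factor (1.85, SE 0.28, adjusted p = 1.30e-05), and Nkx6-1, a β-cell and progenitor factor (3.74, SE 0.82, adjusted p = 0.00139), were higher. Nkx6-1 stayed low, at 0 to 6.48 CPM with Ngn3. Sox9 and Onecut1, of the same tissue, did not pass the test.

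Among relatives of the 5 genes, 5 of 6 were tested and 1, Onecut3, was called lower. It was at 0.458 to 31.3 CPM with Ngn3 (median 4.52) and at 5.80 to 26.3 CPM without (median 12), with an estimate of -1.42 (SE 0.35, adjusted p = 0.00317). Onecut3 therefore had the same sign as Onecut2, while Glis2, a relative of Glis3, was at -0.13 (SE 0.22, adjusted p = 0.906). The median of the 5 relatives was -0.53.

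**Figure D4:**
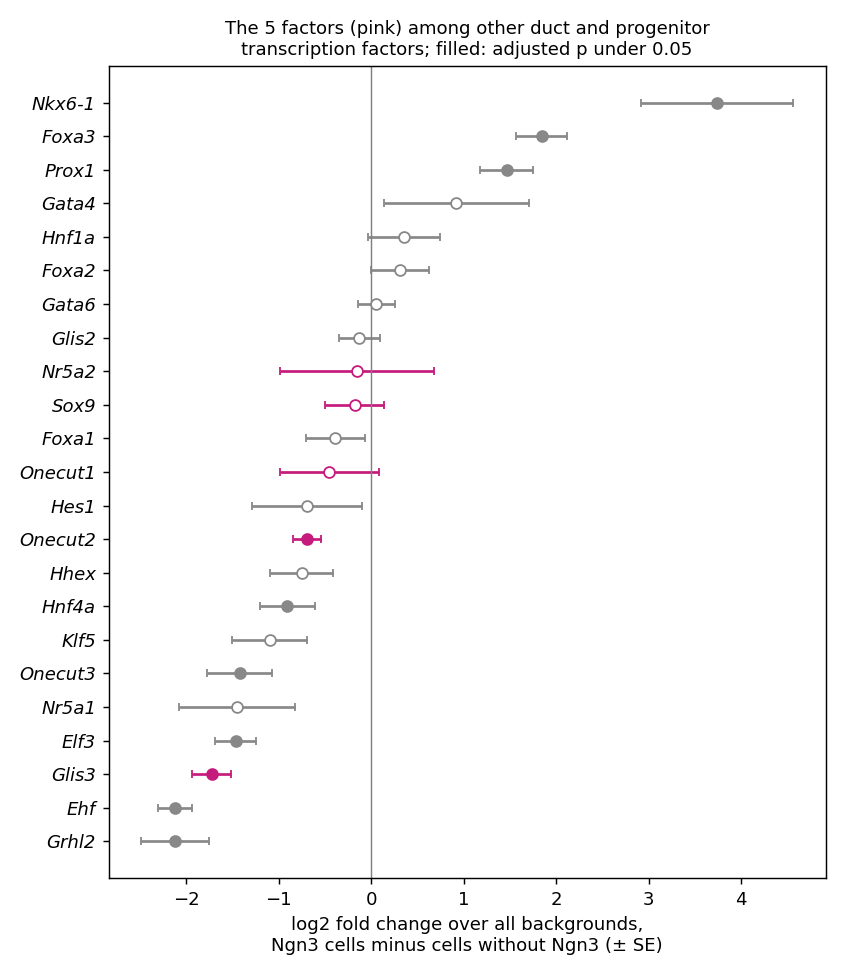
Log2 fold change (± SE) over all backgrounds between cells with and without Ngn3 for the 5 genes (pink) and for listed duct and progenitor factors and relatives (grey), with filled points for adjusted p under 0.05. Of 21 listed genes considered here, the 3 with an SE of 2 or more are not drawn. Glis3 (-1.72) lies beside Elf3 (-1.47), and Sox9 (-0.18) near 0.

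Of 7 genes of cystic duct and tubule disease linked to duct factors such as Onecut1, Glis3 or Sox9, 2 were called lower with Ngn3 and none higher, with a median of -0.13. These were Bicc1, an RNA-binding protein (-2.04, SE 0.21, adjusted p = 4.35e-08), and Pkhd1, a protein of primary cilia (-2.49, SE 0.35, adjusted p = 5.30e-06). Of 12 duct markers, 9 were called lower and none higher (median -1.16), among them Muc1 (-2.75), Car2 (-3.17), Krt19 (-3.27) and Spp1 (-3.26), with adjusted p of 1.98e-09, 1.29e-08, 2.44e-07 and 3.07e-07. Their summed level was 3359 to 24386 CPM with Ngn3, against 20467 to 68721 CPM without. Of 16 endocrine markers, 16 were called higher (median 9.91), and their sum was 1259 to 16500 CPM with Ngn3 and 24.2 to 109 CPM without. Those with the lowest adjusted p were Resp18 (10.02), Scg3 (10.02), Neurod1 (10.33) and Rfx6 (10.92). Neurod1, a direct target of Ngn3, was at 20.01 to 240 CPM with Ngn3 and 0 to 0.349 CPM without.

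Few markers of other cells were called. Of 12 acinar markers, 6 were tested, with 1 called in each direction, among them Cela1 (lower), and a summed level of 2.22 to 50.6 CPM with Ngn3 against 0.617 to 14 without. Of 10 stellate and fibroblast, 6 endothelial and 6 leukocyte markers, 7, 5 and 3 were tested and none was called in either direction. Summed levels with Ngn3 reached 413, 28.5 and 45.3 CPM, and without Ngn3 108, 1.85 and 18.8 CPM. The part of these cells in the values of the 5 genes was not tested.

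Among Ngn3 samples, each gene was set against Neurog3 and against the mean log2(CPM + 1) of the 16 endocrine markers, in 10 relations over 17 samples. P-values are from two-sided permutation tests with 100000 resamples, adjusted over the 10. Sox9 was lower where the markers were higher (r = -0.65, p = 0.0048, adjusted p = 0.024; rho = -0.74, p = 0.00095, adjusted p = 0.0095). It also went against Neurog3 (r = -0.65, p = 0.00474, adjusted p = 0.024; rho = -0.64, p = 0.00717, adjusted p = 0.0358). Without the 2 samples farthest from the median, r was -0.68 and -0.70. The markers also moved with the passage, however. They summed to 1259 to 2629 CPM in the 5 Ngn3 samples of passage 5 and to 4046 to 16500 CPM in the 12 of passage 2, without overlap. Within passage 2 the values were r = -0.50 (n = 12, p = 0.0993, adjusted p = 0.236) and -0.44 (n = 12, p = 0.149, adjusted p = 0.248). Within replicate 1 (n = 6) r was -0.28 and -0.22, and within replicate 2 (n = 6) -0.66 and -0.71, with exact permutation p from 0.0972 to 0.696. The pooled relation of Sox9 therefore did not pass the test within a passage, and for passage 5, with 5 Ngn3 samples, no correlation was computed. Within 6SA cultures (n = 8), rho of Sox9 against the markers passed (rho = -0.93, exact permutation p = 0.00223, adjusted p = 0.0223) and r did not (r = -0.59, adjusted p = 0.379).

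For Onecut2, r was larger in size within passage 2, which holds replicates 1 and 2, than over all Ngn3 samples. Over all 17 Ngn3 samples, its relation to the endocrine markers did not pass the threshold (r = -0.20, p = 0.437, adjusted p = 0.547; rho = -0.50, p = 0.0436, adjusted p = 0.145), nor did that to Neurog3 (r = -0.43, p = 0.0824, adjusted p = 0.275; rho = -0.45, p = 0.0725, adjusted p = 0.181). Without the 2 samples farthest from the median, r was -0.53 and -0.48, with adjusted p of 0.141 and 0.146, and rho was -0.75 and -0.45, of which the one against the markers passed (adjusted p = 0.0134 and 0.192). Within passage 2, however, r was -0.76 against the markers (n = 12, permutation p = 0.00511, adjusted p = 0.0229; rho = -0.86, adjusted p = 0.0068) and -0.76 against Neurog3 (n = 12, permutation p = 0.00372, adjusted p = 0.0229; rho = -0.66, adjusted p = 0.121). Nr5a2 was related to the markers in the same 12 samples (r = -0.72, permutation p = 0.00686, adjusted p = 0.0229), but on few counts, and rho was -0.47 with an adjusted p of 0.315. Within replicate 1 (n = 6), r of Onecut2 was -0.89 against the markers and -0.72 against Neurog3, and within replicate 2 (n = 6) -0.71 and -0.86. None of these passed (adjusted permutation p from 0.0833 to 0.267). Within WT cultures (n = 9) r of Onecut2 was -0.07 and -0.19, within 6SA (n = 8) -0.26 and -0.68, and without replicate 1 (n = 11) 0.19 and -0.21. No relation of Glis3 passed the threshold (r = 0.12 and 0.05 over all, with adjusted p of 0.719 and 0.834), and none of Onecut1 did (r = 0.21 and 0.35, with adjusted p of 0.547 and 0.371).

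**Figure D5:**
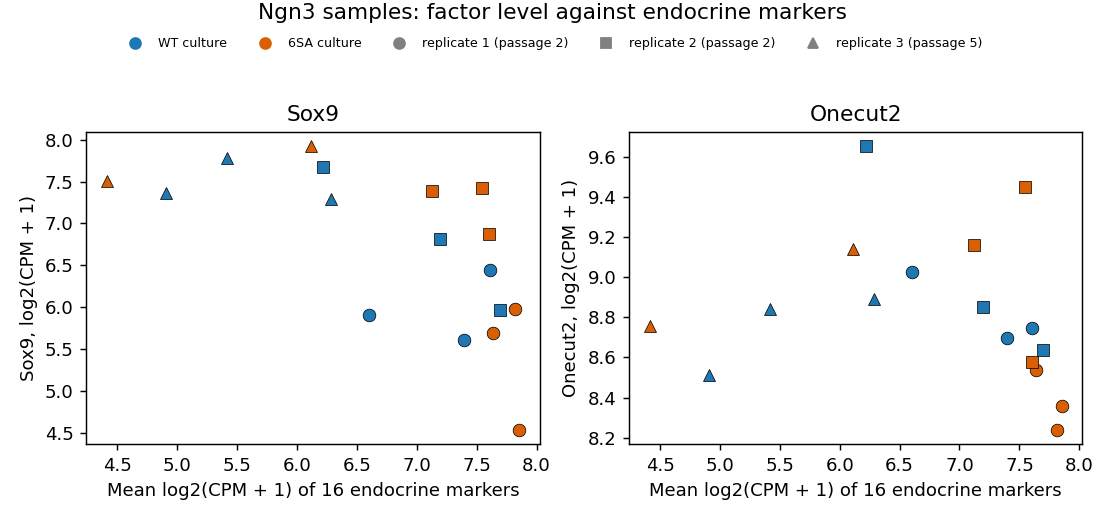
Sox9 and Onecut2 (log2(CPM + 1)) against the mean log2(CPM + 1) of 16 endocrine markers in the 17 Ngn3 samples, with colour for the form of Ngn3 and marker shape for the replicate. The passage 5 samples (triangles) sit at low marker levels with high Sox9, and the passage 2 samples of Onecut2 fall along a line of negative slope (r = -0.76).

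The genes whose pattern was most like that of each of the 5 were taken by Pearson's r of log2(CPM + 1) over the 32 samples, among 11651 genes with a mean of at least 5 CPM. For Glis3 they were Rnf43 (r = 0.93), Il1rn (0.93) and Slco2a1 (0.93). For Onecut2 they were Tbl1xr1 (r = 0.90), Kansl1l (0.86) and Slco3a1 (0.85). For Sox9 they were C1qbp (r = 0.91), Ccdc122 (0.90) and Eif3f (0.89). The highest values were lower for Onecut1 (Tram1, 0.62, Acss3, 0.61, and Raph1, 0.59) and for Nr5a2 (Renbp, 0.64, Eif4a1, 0.53, and Wdr46, 0.52). Many of the samples share a passage or a replicate number, so that these values are a description.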

How the data were processed

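RNA of sorted pools of 50 cells was sequenced after 8 days of doxycycline. The authors deposited counts per gene, made by them with GSNAP and HTSeq (0.5.3p3) on mm10 with Ensembl release 81, per the labels and methods. These are whole-number read counts without normalization, and the strand setting is not given in the sources used here, so reads of a gene and an antisense partner cannot be told apart. Rows that name no gene held 33.9 to 56.5% of the reads and stayed out of library sizes and tests, as did 92 spike-ins. Of 61 libraries, 3 with at most 1000000 gene counts were left out. Technical repeats were summed to 32 samples with 2579583 to 19461008 gene counts, where 3 counts correspond to 0.136 to 1.01 CPM. Symbols were found for 45143 of 46078 gene identifiers. Genes detected in at least 5 libraries and with a variance over 0.001 were tested (24004).

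Groups were taken from the sample labels. Counts were fitted in R 4.3.3 with edgeR 4.0.16 (TMM scaling, quasi-likelihood F test) over the 12 conditions, which share 1 estimate of the spread, with contrasts for each comparison and Benjamini-Hochberg adjustment over all genes tested. Levels are TMM-scaled CPM, and log2 levels are log2(CPM + 1). Alternatives were DESeq2 1.42.0, other scalings and filters, a replicate block, other choices of libraries, and leaving out replicates or single samples. Fits without a single sample used the dispersion trend of the fit of all samples. On simulated data for Ngn3 added over all backgrounds (24004 genes, 200 changed), edgeR recovered 16% of 2-fold and 100% of 4-fold changes, with 3 of 119 calls among unchanged genes. DESeq2 recovered 33% and 100%, with 24 of 157. The simulation gave all genes the same dispersion, changed only genes above a set mean count and held no difference between replicate numbers. These rates therefore need not hold for the real counts.

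The 5 genes and the lists were chosen with earlier results of these data known. Named are the 5 genes, the 3 introduced factors, the called genes among other duct factors and relatives, up to 4 genes with the lowest adjusted p of each other list, and the 3 genes most like each of the 5 in pattern. The values of some genes that this rule would name are not reported here, although they are part of the counts and medians of their lists.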

Additional observations from a re-analysis of the deposited data

How the results depend on the processing

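Each estimate was computed again under alternative settings. The number of the 5 genes called lower with Ngn3 over all backgrounds was 2 in every setting run but without replicate 2, where it was 1 (1 to 2 over leaving out a replicate number or a sample). With MafA it was 1 with plain library totals, without a gene filter, with the first technical repeat only and with the compared conditions only, and 1, 0 and 1 without replicate 1, 2 and 3 (0 to 2 over leaving out a single sample or a replicate number). With Pdx1-MafA it was 1 with plain library totals and with the first technical repeat, and 1 without each of the 3 replicate numbers (1 to 2 when single samples are included). For passage, the number of the 5 genes called in either direction was 1 without a gene filter and in DESeq2. This number was 2 without replicate 2, with Sox9 higher at passage 5 by 1.86, and 0 without replicate 1 (0 to 2). By Pearson's r, 2 of the 10 relations passed the threshold, 0 within WT, 6SA, replicate 1 or replicate 2 alone, and 0 to 3 over leaving out a replicate number. By rho, that of Sox9 with the markers passed within 6SA. The relations within single replicates, those without the 2 farthest samples, the F test and the replicate term were added after seeing the data.

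Estimates that changed sign were uncalled ones. Their ranges are over leaving out each replicate number. With plain library totals over all backgrounds, Sox9 was at 0.047 and Nr5a2 at 0.037, and with all libraries Nr5a2 was at 0.29. Their ranges were -0.30 to 0.23 for Sox9, -1.24 to 0.34 for Onecut1 and -0.45 to 1.46 for Nr5a2. Sox9 ranged from -0.019 to 1.11 with Pdx1 and from -0.56 to 0.12 with MafA. For Pdx1 added to Ngn3-MafA, Glis3 was at -0.091 with all libraries and ranged from -0.51 to 0.68. For Pdx1 against MafA it ranged from -0.75 to 0.86. For 6SA against WT, Onecut2 ranged from -0.26 to 0.0040 and Glis3 from -0.016 to 0.47, and in cells without Ngn3 Glis3 ranged from -0.33 to 0.0090. The 6SA minus WT effect ranged from -0.19 to 0.48 for Onecut2, which was at -0.11 with the first repeat, and from -0.025 to 0.80 for Glis3. Onecut2 by passage ranged from -0.25 to 0.15. The causes were not tested.

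Same-numbered samples deviated together in 12 of 14 pairs (correlation above 0.1), and 24 of 28 samples correlated best with their own number. The 2 pairs below -0.1 were both of 6SA Pdx1-MafA with and without Ngn3, where the Ngn3 condition has 2 samples. The main tests did not use the numbers as pairs. Between same-numbered samples, Onecut2 was lower with Ngn3 in 14 of 14 pairs, Glis3 in 13, Sox9 in 11, Nr5a2 in 8 and Onecut1 in 7. These signs were not tested. With a replicate block 2, 0, 2 and 2 of the 5 genes were called over all backgrounds, with Pdx1, with MafA and with both, as without it, and of all genes 6620, 1011, 2123 and 5530, against 5168, 358, 1121 and 4279. With Pdx1, Sox9 was at -0.16 with the replicate block and also with a block by culture. Without a gene filter, 1273 genes were called with Pdx1 and 2077 with MafA, and in DESeq2 911 and 1928. Without replicate 2, 2085, 16, 138 and 880 genes were called in these 4 comparisons. Onecut1 had at most 107 counts in a sample and Nr5a2 at most 57.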
